A study of Mus musculus with 6 samples.

Results

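Glycolysis converts glucose to pyruvate, and lactate dehydrogenase then turns pyruvate into lactate. The translated transcripts of 10 genes of this route were examined in brain endothelial cells of mouse embryos: the hexokinases Hk1 and Hk2, the isomerase Gpi1, the phosphofructokinases Pfkl and Pfkp, the aldolase Aldoa, the triosephosphate isomerase Tpi1, the phosphoglycerate kinase Pgk1, the enolase Eno1 and the lactate dehydrogenase subunit Ldha. They were taken by symbol from the 23827 genes of the deposited table, each matched a single row, and all 10 passed a minimum mean of 1 RPKM (reads scaled to transcript length and library size) which left 12493 genes for testing. The RNA came from translating ribosome affinity purification, in which a ribosome tag carried by the cells of interest lets the messages under translation there be drawn out of whole tissue. The 6 libraries, all of strain C57BL/6 x 129/Sv at embryonic day E14.5, were 3 biological replicates of wild type and 3 with the modification R26 Axin1 IresLacZ, an overexpression of Axin1, a scaffold of the complex that degrades beta-catenin. The mothers of both groups had received tamoxifen at E12.5. Neither the driver of recombination nor any pooling of embryos is named by the sources at hand. The comparison asks how damping of Wnt/beta-catenin signalling bears on the translated genes of this endothelium.

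Hexokinase and phosphofructokinase are the steps at which cells are known to control how much glucose enters the route, while the isomerases, aldolase, phosphoglycerate kinase and enolase work near equilibrium. Lactate dehydrogenase regenerates the NAD+ that the route consumes. Endothelial cells are known for making most of their ATP by glycolysis even where oxygen is at hand, and many genes of the route are known targets of the hypoxia-inducible factors and of Myc.

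Recovered read totals ranged from 53524184 to 62507510 in the wild-type and from 21076922 to 37040176 in the Axin1 libraries. Axin1 itself was listed at 13.6, 14.4 and 15.1 RPKM in wild type and at 37.8, 38.1 and 37.4 RPKM with overexpression. The 12 pan-endothelial markers were listed at 52.7 to 586 RPKM in wild type, and their summed level overlapped between the groups (3173 to 3291 RPKM in wild type, 3224 to 3505 RPKM with Axin1). Single endothelial markers did differ, with 1 called higher and 2 lower (median log2 fold change -0.08), and 0 lower without Axin1 replicate 2. Markers of other cells were present too and differed by genotype. Counts of called markers stand beside 14.4% of all tested genes called higher and 8.37% called lower. The summed level of 13 listed erythroid markers was 120 to 166 RPKM in wild type and 414 to 775 RPKM with Axin1. All 5 that passed the filter rose (median log2 fold change 1.67), and 4 of them without Axin1 replicate 2 or 3. With no filter, 5 of 10 were called higher (median 0.34). The adult globin genes Hba-a1, Hba-a2 and Hbb-b1 were listed at 0 in every library. How reads that match several places were treated is not given, and its part in these zeros was not tested. That of 14 neural progenitor markers was 1785 to 1952 against 2288 to 2395 RPKM (8 called higher, 5 without Axin1 replicate 2), and that of 12 neuron markers 551 to 703 against 682 to 704 RPKM. Of the neuron markers 4 were called higher, a count that was 0 without Axin1 replicate 2 or 3 and with GC content and length corrected for, 1 without wild-type replicate 3 or Axin1 replicate 1 and with the upper quartile, and 2 without wild-type replicate 2 and with the median of ratios. The 11 pericyte and smooth muscle markers summed to 44.4 to 52.4 against 31.9 to 45.1 RPKM. Of these, 4 were called lower, and 0 with a pseudocount of 10, without Axin1 replicate 2 or 3, or without wild-type replicate 1. The count was 1 without wild-type replicate 3, with no filter or one of 5 RPKM, and with GC content and length corrected for. The 12 meningeal markers summed to 656 to 1033 against 739 to 757 RPKM, with 1 called higher, 3 lower and a median log2 fold change of -0.32. Their lower calls numbered 7 with a replicate block, 5 without wild-type replicate 2, 1 without Axin1 replicate 2 or 3, and 1 to 4 under the other settings. The 9 microglial markers summed to 24.3 to 26.5 against 24.2 to 43.5 RPKM, with 1 called higher. That count was 0 without any 1 of the wild-type libraries or Axin1 replicate 3 and under 6 other settings, and 2 without Axin1 replicate 2. The part of these cells in the results on glycolytic genes was not tested, and in such bulk RNA fewer cells of a type and less RNA per cell cannot be told apart. In the header, RS148 stands in each of the 3 wild-type columns and RS216 in each of the 3 Axin1 columns. If these tags mark runs, run and genotype cannot be told apart.

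The promoters of the 3 enzyme genes that rose with Axin1 overexpression (Hk2, Pgk1 and Ldha, values below) are shown because each holds the core letters of the hypoxia response element. The sequences are from RefSeq on build GRCm38.p6, run 5′ to 3′ on the gene's strand from 250 bases before to 50 bases after an annotated start, and have in capitals every ACGTG or GCGTG read on either strand, with overlapping matches joined.
Hk2, chr6:82774405-82774704, minus strand: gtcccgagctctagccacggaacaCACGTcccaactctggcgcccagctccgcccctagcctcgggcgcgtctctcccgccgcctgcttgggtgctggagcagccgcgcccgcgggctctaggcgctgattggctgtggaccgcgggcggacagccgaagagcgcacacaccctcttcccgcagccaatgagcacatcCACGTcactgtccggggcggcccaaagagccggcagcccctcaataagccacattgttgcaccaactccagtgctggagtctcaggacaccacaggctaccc
Pgk1, chrX:106186850-106187149, plus strand: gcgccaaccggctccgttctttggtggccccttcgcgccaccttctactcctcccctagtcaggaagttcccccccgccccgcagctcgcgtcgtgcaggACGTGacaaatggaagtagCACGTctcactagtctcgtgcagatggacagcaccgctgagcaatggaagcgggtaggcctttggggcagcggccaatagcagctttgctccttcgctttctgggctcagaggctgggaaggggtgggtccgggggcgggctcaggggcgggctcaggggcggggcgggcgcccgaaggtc
Ldha, the upstream of its 2 windows, chr7:46845554-46845853, plus strand: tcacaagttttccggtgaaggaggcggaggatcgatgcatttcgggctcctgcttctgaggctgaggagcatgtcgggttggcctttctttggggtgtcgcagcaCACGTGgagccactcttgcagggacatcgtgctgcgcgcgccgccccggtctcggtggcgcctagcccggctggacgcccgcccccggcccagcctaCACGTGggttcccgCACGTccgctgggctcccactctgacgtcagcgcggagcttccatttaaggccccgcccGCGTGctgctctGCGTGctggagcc
The Hk2 and Pgk1 windows each held 2 matches, all of them ACGTG. The Ldha window held 7, of which 5 were ACGTG and 2 GCGTG, and its CACGTG palindromes count on both strands. Of the 10 enzyme genes, 5 had ACGTG in a window of any of their starts (Hk1, Hk2, Aldoa, Pgk1 and Ldha), against 21.8% of 27025 genes in the promoter table. Either motif was found for 8 of the 10, against 46.7% of all genes, and Gpi1 and Tpi1 had neither. Counts by gene favour genes with several starts. By window, ACGTG was in 6 of the 16 of the enzyme genes, against 19.6% of all 32851 windows. Either motif was in 12 of the 16, against 43.8%. The genes compared were not matched for CG content of the promoter or for expression. CACGTG, the E-box that Myc binds and that contains ACGTG, was found for Ldha alone among the 10, against 8.09% of all genes. These matches describe the letters in the windows and not binding in these cells.

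**Figure D1:**
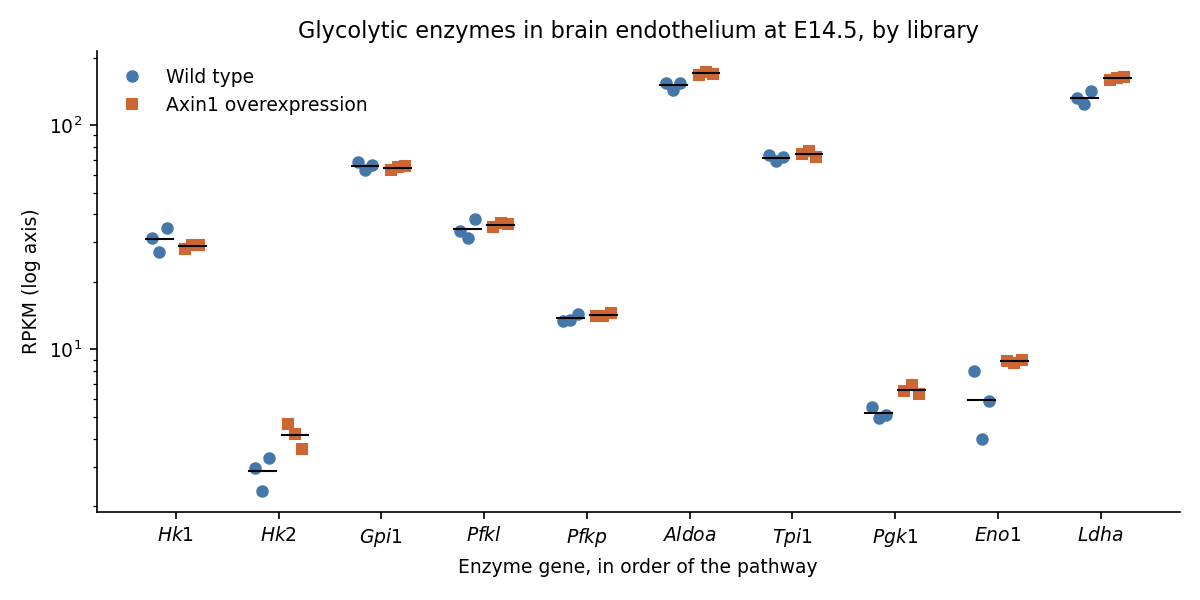
RPKM of the 10 enzyme genes (log axis) in each library, with wild type as circles, Axin1 overexpression as squares and group means as lines; within a group the points run from replicate 1 to 3. Levels ran from 2.86 RPKM for Hk2 to 151 RPKM for Aldoa in wild type, and the groups were separate for Hk2, Aldoa, Pgk1, Eno1 and Ldha.

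In wild type the 10 genes spanned a 52.6-fold range of levels per transcript length. Aldoa was the highest at 151 ± 6.34 RPKM (SD, n = 3), above 97.5% of tested genes, followed by Ldha at 132 ± 9.05 RPKM (SD, n = 3). Tpi1 and Gpi1, which interconvert the triose and the hexose phosphates, came next at 71.6 ± 2.50 and 65.9 ± 2.66 RPKM (SD, n = 3). Pfkl and Hk1, of the phosphofructokinase and hexokinase steps, were listed at 34.4 ± 3.35 and 31.1 ± 3.82 RPKM (SD, n = 3). Pfkp followed at 13.7 ± 0.518 RPKM, Eno1 at 5.96 ± 2.00 RPKM, Pgk1 at 5.20 ± 0.315 RPKM and Hk2 at 2.86 ± 0.481 RPKM (SD, n = 3). Neighbours in this order did not overlap between libraries, except Pfkl with Hk1 and Eno1 with Pgk1. The order was the same with Axin1 overexpression, where no neighbours overlapped and the range was 41.0-fold.

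Several genes of the route have near-identical copies in the mouse genome, mostly processed pseudogenes. Among annotated transcripts, copies of at least 90% identity over at least 50% of the transcript numbered 9 for Ldha, 6 for Eno1, 4 for Aldoa, 2 for Pgk1 and 1 for Gpi1. None was found for Hk1, Hk2, Pfkl, Pfkp and Tpi1. All 50-base windows of Hk2 were found in no other annotated gene, while 68.0% of those of Pgk1 and 72.2% of those of Eno1 were shared. For the other 7 genes the shared part was 0.05% (Pfkl) to 25.3% (Gpi1). The sources at hand do not say how reads that match several places were treated. Gapdh, which catalyses the step between Tpi1 and Pgk1, had 158 such matches and shared 82.5% of its windows. These matches were counted by gene and transcript type, so that a few genes, such as Gm5069, count more than once. It was listed at 0.254 ± 0.098 RPKM (SD, n = 3) with 6 to 26 reads a library. Pkm, the pyruvate kinase gene, with 34.4% of its windows shared, was the highest of the route at 199 ± 11.7 RPKM (SD, n = 3). The part of shared sequence in these levels was not tested. Levels of Pgk1 and Eno1 are uncertain, since counting could split their reads with the copies.

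**Figure D2:**
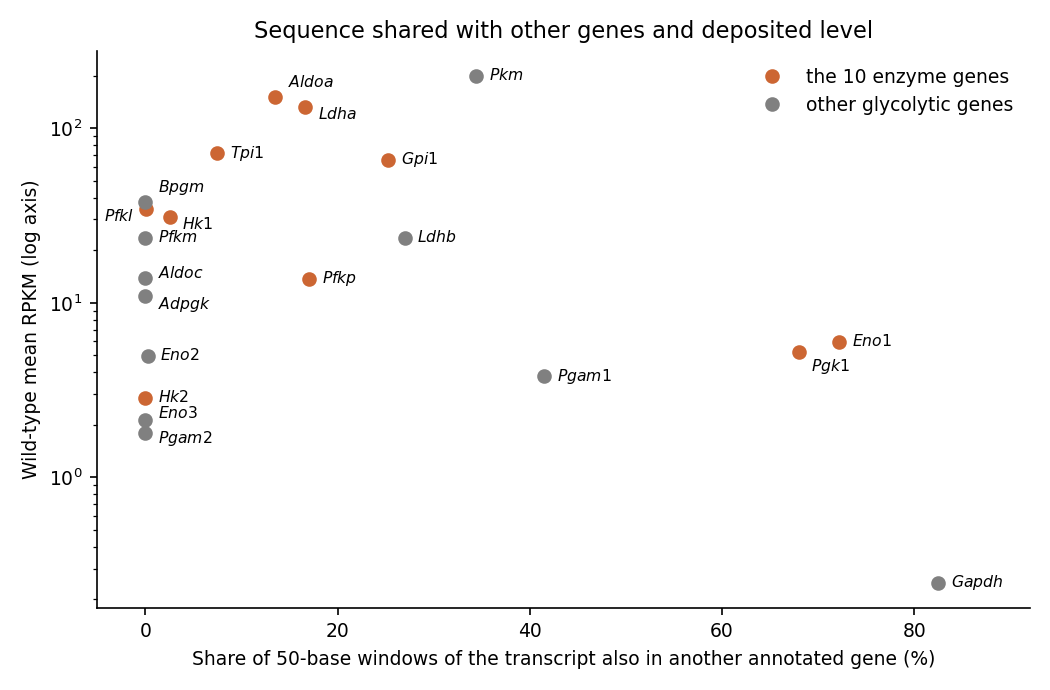
Wild-type mean RPKM (log axis) against the share of 50-base windows of the transcript that also occur in another annotated gene, for the 10 enzyme genes and 11 others of glycolysis. Genes with over 60% shared, Pgk1, Eno1 and Gapdh, all lay below 6 RPKM, as did several genes with none shared, such as Hk2.

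The Eno1 row rests on a small piece of the gene. The transcript length that its values imply was 127 bases, or 6.27% of the 2027 bases of the reference transcript, against 87.2% to 99.96% for the other 9 genes. Only 0.087% of 11494 genes with a reference length had an implied length under 10% of it. The row held 63, 27 and 43 reads in wild type and 41, 41 and 24 reads with Axin1. Gm5506, an intronless copy of Eno1, was listed in 2 rows for the same transcript, of which 1 was at 0 in every library. The other implied 1762 of 1791 bases and held 707, 901 and 1135 reads in wild type and 457, 504 and 312 with Axin1. Its level was 6.47, 9.60 and 11.2 RPKM in wild type and 7.12, 7.72 and 8.39 RPKM with Axin1, so that the groups overlapped (log2 fold change -0.18, SE 0.16, limma adjusted p = 0.436). The rows of the gene and of its copy thus had log2 fold changes of opposite sign, and neither passed.

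Of the 10 genes, 3 rose with Axin1 overexpression (Hk2, Pgk1 and Ldha) and 0 fell, by limma on log2(RPKM + 1) with an adjusted p under 0.05. Among all 12493 genes tested, 14.4% were called higher and 8.37% lower, or 22.8% in either direction (1800 higher and 1046 lower). After rescaling the libraries the split was 1248 higher and 1392 lower with the median of ratios and 1117 higher and 1466 lower with the upper quartile. At an unadjusted p under 0.05 the count of lower genes among the 10 was also 0, and no alternative setting called any of them lower. The median log2 fold change of the 10 was 0.12, beside 0.04 over all tested genes, and 8 of the 10 were above 0, beside 58.8% of all. The groups did not overlap for 5 of the 10, all higher with Axin1, where 43.9% of all tested genes did not overlap, 28.0% being higher and 15.9% lower. The count of 3 fell to 0 without Axin1 replicate 2 and was between 2 and 4 under every other setting run. In the authors' deposited table none of the 10 had an adjusted p under 0.05, where 8.88% of its genes with reads did. There the adjusted p was 0.068 for Hk2, 0.102 for Ldha and 0.136 for Pgk1.

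**Figure D3:**
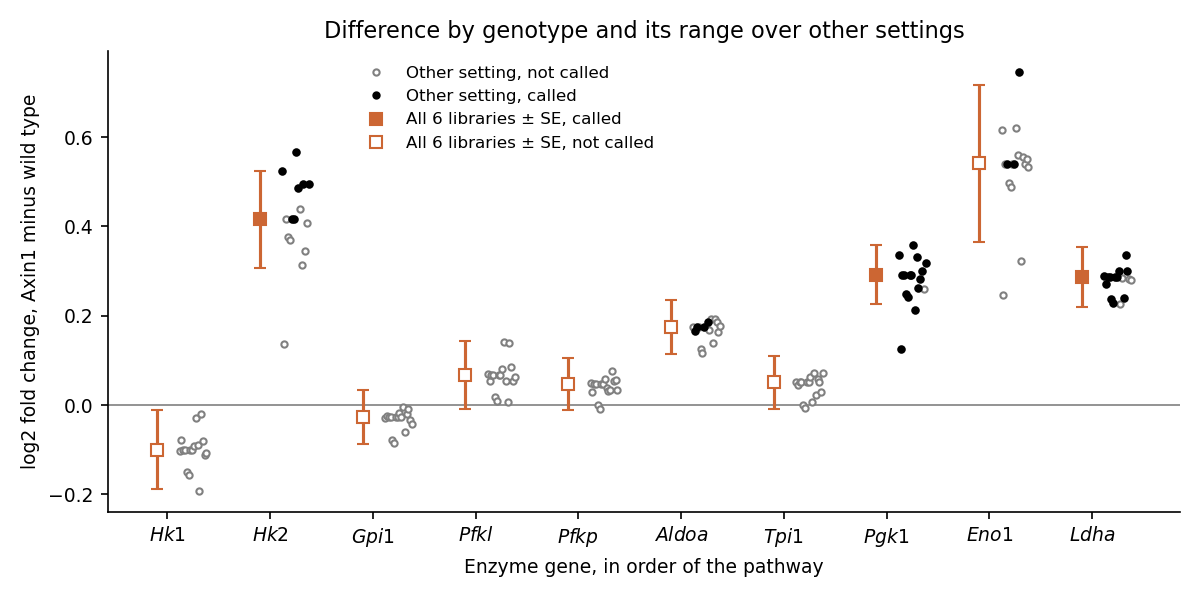
log2 fold change (Axin1 overexpression minus wild type) of each enzyme gene in the fit of all 6 libraries (squares, bars ± SE, filled where called) and under the other settings (small circles, black where called). Hk2, Pgk1 and Ldha were called, Hk1 and Gpi1 lay below 0 in every setting, and Eno1 had the widest error.

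Hk2 encodes the inducible hexokinase, which binds mitochondria and is low in most resting tissues. It was listed at 2.97, 2.34 and 3.29 RPKM in wild type (418 to 1040 reads over all 6 libraries) and at 4.66, 4.18 and 3.59 RPKM with Axin1. All 3 Axin1 libraries were above all 3 wild-type libraries, with replicate 3 of Axin1 the nearest to them. The log2 fold change was 0.42 (SE 0.11, limma adjusted p = 0.028). It depended on the pseudocount at this low level, being 0.52 with 0.1 and 0.14 with 10, where the call was lost (adjusted p = 0.053), and voom gave 0.57 (adjusted p = 0.0177). The call was lost under 8 of 15 alternatives: without wild-type replicate 1 (adjusted p = 0.0541) or 2 (0.0575), without Axin1 replicate 1 (0.083) or 2 (0.089), with no filter (0.0758), with a pseudocount of 10, and after rescaling by the median of ratios (0.0517) or the upper quartile (0.0525).

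Hk1, the constitutive hexokinase, was the main form at 31.4, 27.1 and 34.7 RPKM in wild type and 28.0, 29.3 and 29.1 RPKM with Axin1. The groups overlapped, and the log2 fold change was -0.10 (SE 0.09, limma adjusted p = 0.434). Hk2 accounted for 8.40 ± 0.397% of the summed hexokinase RPKM in wild type and 12.6 ± 1.65% with Axin1 (SD, n = 3), the remainder being Hk1. These shares, which do not depend on library scaling, were 7.94% to 8.64% in the wild-type and 11.0% to 14.3% in the Axin1 libraries, without overlap. An exact two-sided permutation test gave p = 0.1, the smallest that 3 against 3 libraries allow, and 0.167 adjusted over the 5 enzyme steps compared this way.

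Gpi1, which turns glucose 6-phosphate into fructose 6-phosphate, was listed at 68.2, 63.0 and 66.6 RPKM in wild type and 62.8, 65.1 and 65.9 RPKM with Axin1. The groups overlapped almost fully (log2 fold change -0.03, SE 0.06, limma adjusted p = 0.763).

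The phosphofructokinases add the second phosphate in the step most tightly controlled by the energy state of the cell. Pfkl, the liver form, was listed at 33.7, 31.5 and 38.1 RPKM in wild type and 35.1, 36.7 and 36.3 RPKM with Axin1 (log2 fold change 0.07, SE 0.08, limma adjusted p = 0.553). Pfkp, the platelet form, was listed at 13.4, 13.5 and 14.3 RPKM in wild type and 14.1, 14.1 and 14.52 RPKM with Axin1 (log2 fold change 0.05, SE 0.06, limma adjusted p = 0.583). Both overlapped between the groups, and the sign of Pfkp turned after rescaling to a shared upper quartile (-0.01). Pfkm, the muscle form, stood between them at 23.5 ± 3.39 and 24.6 ± 0.694 RPKM (SD, n = 3; log2 fold change 0.07, which turned to -0.05 without wild-type replicate 2). The division of the step differed by less than the spread between libraries. Pfkl held 48.0 ± 1.06% of the summed RPKM in wild type and 48.1 ± 0.98% with Axin1, and Pfkp 19.3 ± 1.40% and 19.0 ± 0.344% (SD, n = 3). The exact two-sided permutation test of the Pfkl share gave p = 0.8 (n = 3 and 3).

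**Figure D4:**
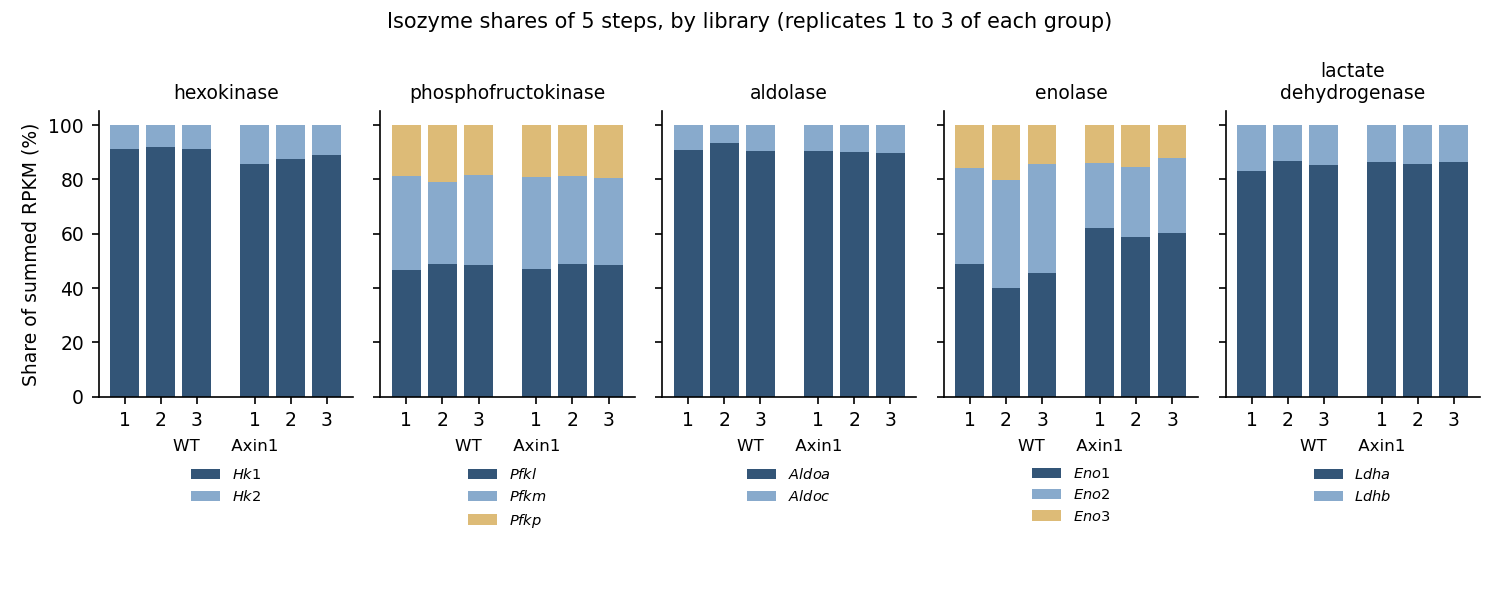
Share of the summed RPKM of 5 enzyme steps (%) held by each isozyme gene, as stacked bars from 0 to 100 for replicates 1 to 3 of wild type (left) and of Axin1 overexpression (right). Hk1, Aldoa and Ldha held most of their steps in every library, and the phosphofructokinase bars were alike in both groups.

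Aldoa, which splits fructose 1,6-bisphosphate, was listed at 154, 143 and 154 RPKM in wild type and 168, 173 and 170 RPKM with Axin1. The groups did not overlap, but the log2 fold change of 0.17 (SE 0.06) did not pass (limma adjusted p = 0.066). It passed under 4 of 16 alternatives, with adjusted p between 0.0196 (pseudocount of 10) and 0.198 (without Axin1 replicate 2). Aldoc, the brain form of the enzyme, was listed at 13.9 ± 3.20 RPKM in wild type and 18.8 ± 0.967 RPKM with Axin1 (SD, n = 3; log2 fold change 0.43, limma adjusted p = 0.064). Leaving out wild-type replicate 2 (adjusted p = 0.0487) or 3 (0.0445) brought Aldoc past the threshold, as did a replicate block (0.0455). Aldoa held 91.6 ± 1.51% of the summed aldolase RPKM in wild type and 90.1 ± 0.413% with Axin1 (SD, n = 3), so that the share of Aldoc was 1.53 percentage points higher with no overlap between libraries (exact permutation p = 0.1, and 0.167 adjusted over 5 steps).

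Tpi1, which turns the second aldolase product into the form that is oxidised, was listed at 73.7, 68.9 and 72.3 RPKM in wild type and 74.1, 76.5 and 72.2 RPKM with Axin1. The groups overlapped (log2 fold change 0.05, SE 0.06, limma adjusted p = 0.564), and the sign turned after rescaling to a shared upper quartile (-0.01).

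Pgk1, which makes the first ATP of the route, rose from 5.55, 4.94 and 5.10 RPKM in wild type (474 to 620 reads) to 6.51, 6.94 and 6.31 RPKM with Axin1 (240 to 463 reads). All 3 Axin1 libraries were above all 3 wild-type libraries. The log2 fold change was 0.29 (SE 0.07, limma adjusted p = 0.017), or 0.13 with a pseudocount of 10. The call was lost under 1 of 16 alternatives, without Axin1 replicate 2 (adjusted p = 0.0773). Over these alternatives the adjusted p was 0.0122 to 0.0773. Since 68.0% of its 50-base windows also occur in other annotated genes, the call is uncertain.

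Eno1, which makes phosphoenolpyruvate, was listed at 8.0, 3.99 and 5.90 RPKM in wild type and 8.86, 8.72 and 8.95 RPKM with Axin1. The wild-type libraries were widely spread, and all lay below the Axin1 libraries, which were close together. The log2 fold change of 0.54 (SE 0.18) did not pass (limma adjusted p = 0.058), and it passed without wild-type replicate 1 (0.75, adjusted p = 0.0121), under a filter of 5 RPKM (0.0474) and with a replicate block (0.0351). It was 0.32 without wild-type replicate 2 and 0.25 with a pseudocount of 10. Eno2, the neuronal enolase gene, went the other way without passing, with 4.97 ± 0.921 RPKM in wild type and 3.78 ± 0.335 RPKM with Axin1 (SD, n = 3; log2 fold change -0.31, limma adjusted p = 0.078), and the call was made when wild-type replicate 2 was left out (adjusted p = 0.0137). Eno3, the muscle form, was listed at 2.14 ± 0.377 and 2.04 ± 0.247 RPKM (SD, n = 3). The share of Eno1 in the summed RPKM of these 3 genes was 44.9 ± 4.45% in wild type and 60.3 ± 1.66% with Axin1 (SD, n = 3; exact permutation p = 0.1). The Eno1 row covers 127 bases only, and in reads the same shares were 4.40 ± 0.719% and 8.06 ± 0.537% (SD, n = 3). The level of Eno1 relative to its isozymes is therefore uncertain.

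Ldha encodes the subunit that favours the making of lactate. It rose from 132, 124 and 142 RPKM in wild type to 159, 163 and 163 RPKM with Axin1, on 5460 to 12941 reads a library. The highest wild-type library lay below the lowest Axin1 library. The log2 fold change was 0.29 (SE 0.07, limma adjusted p = 0.019). The call was lost under 4 of 16 alternatives, once GC content and length were corrected for (adjusted p = 0.0512), without wild-type replicate 1 (0.0502), and without Axin1 replicate 2 (0.075) or 3 (0.0636). Ldhb, the subunit linked with lactate use, was listed at 23.5 ± 4.197 and 26.05 ± 1.04 RPKM (SD, n = 3; log2 fold change 0.15, limma adjusted p = 0.360). Ldha held 85.0 ± 1.91% of the summed RPKM of both in wild type and 86.1 ± 0.399% with Axin1 (SD, n = 3), with overlap (exact permutation p = 0.4).

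Within wild type, replicate 2 was the lowest library for 9 of the 10, all but Pfkp, while it was the lowest for 38.4% of all tested genes. The summed RPKM of the 10 was 523, 482 and 537 in wild type and 561, 577 and 570 with Axin1. Summed neuron markers were lowest in the same library (551 RPKM, beside 659 and 703 in the other two), as were summed neural progenitor markers (1785 RPKM, beside 1846 and 1952). So were the sums of the pericyte (44.4 RPKM) and meningeal markers (656 RPKM), the further glycolytic genes (301 RPKM), the citric acid cycle (1065 RPKM), the pentose phosphate pathway (304 RPKM) and the side branches (216 RPKM), while that of the pan-endothelial markers was highest there (3291 RPKM). Their part in this was not tested. Without wild-type replicate 2 the median log2 fold change of the 10 was 0.09 and 2 of them were called, Pgk1 (adjusted p = 0.0382) and Ldha (0.0394). The spread within the Axin1 group was smaller, with coefficients of variation of 1.35% to 4.88% for 9 genes and 12.9% for Hk2, against 3.49% to 33.6% in wild type. The median over all tested genes was 6.86% in wild type. No such median is given for the Axin1 group, so whether the smaller spread is particular to the enzymes was not tested. Of 7038 other genes whose mean reached 10 RPKM, those whose centred log2 levels over the 6 libraries lay closest to the mean of the 10 were Kdm1a, Sin3a and Myzap, with root mean square differences of 0.018, 0.019 and 0.020. None of these 3 passed the test (log2 fold changes 0.18, 0.16 and 0.18).

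The other genes of glucose metabolism were counted from lists of pathway members. Among all tested genes 22.8% were called, 14.4% higher and 8.37% lower. Of 20 further isozymes and steps of glycolysis, 10 passed the filter and 0 were called by limma, with a median log2 fold change of 0.09. Among these 10, 3 had an unadjusted p under 0.05 (Aldoc and Pkm above 0, Eno2 below 0). Alternatives called 0 to 2 of them, voom 1 among them, with 2 without wild-type replicate 2 or 3. Pkm, which makes pyruvate and ATP, was listed at 193, 191 and 212 RPKM in wild type and 228, 230 and 226 RPKM with Axin1. Its groups did not overlap (log2 fold change 0.20, SE 0.06, limma adjusted p = 0.054), and it passed under 6 of 16 alternatives, among them without wild-type replicate 3 (adjusted p = 0.0402).

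Among genes for glucose entry and lactate exit, Bsg and Slc16a3 had log2 fold changes larger in size than any of the 10 enzymes. Of the 5 tested genes of this list, 1 rose and 2 fell (60.0% called, beside 22.8% of all tested genes). Slc2a1, the glucose transporter of the blood-brain barrier, fell from 698, 713 and 754 RPKM in wild type to 530, 540 and 570 RPKM with Axin1 (log2 fold change -0.40, SE 0.06, limma adjusted p = 0.00447). Bsg, the chaperone of the lactate transporters and a known barrier marker, fell from 875, 864 and 793 to 402, 417 and 463 RPKM (log2 fold change -0.98, SE 0.07, limma adjusted p = 1.7e-04). Slc16a3, the transporter typical of cells that export lactate, rose from 1.75, 1.60 and 1.99 to 4.87, 4.94 and 3.93 RPKM (log2 fold change 1.00, SE 0.09, limma adjusted p = 3.2e-04). Slc16a1, the barrier's own monocarboxylate transporter, overlapped between the groups at 4.28 ± 0.283 and 4.05 ± 0.176 RPKM (SD, n = 3). The calls of Slc2a1 and Bsg were made under all 16 alternatives and that of Slc16a3 under the 15 that tested it. The largest log2 fold change among the 3 called enzymes, 0.42 for Hk2, was close in size to that of Slc2a1 and opposite in sign. The likeness in size depends on the pseudocount, which shrinks the fold changes of low genes such as Hk2. With a pseudocount of 0.1 the values were 0.52 for Hk2 and -0.40 for Slc2a1, and with voom 0.57 and -0.39.

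**Figure D5:**
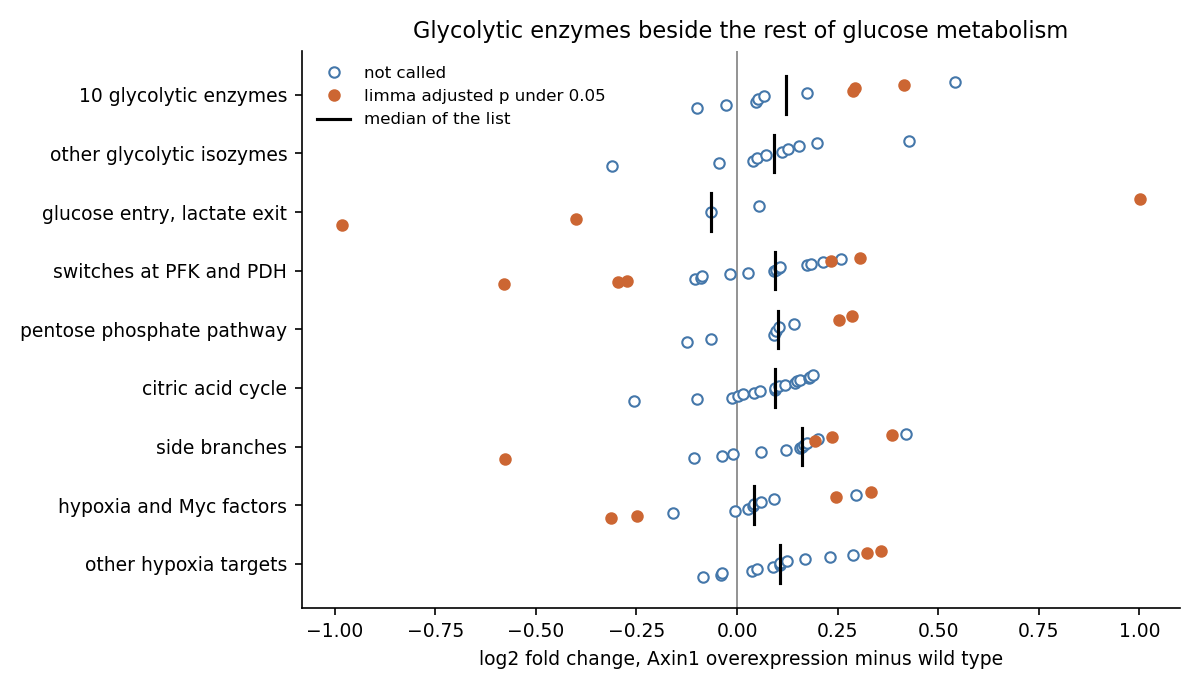
log2 fold change (Axin1 overexpression minus wild type) of every tested gene in the 10 enzymes and 8 further lists, filled where the limma adjusted p was under 0.05, with the median of each list as a bar. The enzymes lay between -0.10 and 0.54, and Bsg at -0.98 and Slc16a3 at 1.00 lay outside the range of every other gene shown.

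Of 18 tested genes that switch flux at phosphofructokinase and at pyruvate dehydrogenase, 2 rose and 3 fell. The share called was 27.8%, beside 22.8% of all tested genes. Pdk4, a kinase that holds pyruvate back from the mitochondrial dehydrogenase, fell from 3.13, 2.63 and 2.91 RPKM to 1.41, 1.85 and 1.55 RPKM (log2 fold change -0.58, SE 0.08, limma adjusted p = 0.00307), a call made under all 15 alternatives that tested it. Pdk2, of the same family, fell too (log2 fold change -0.27, limma adjusted p = 0.038), as did Pfkfb2, which makes the activator of phosphofructokinase (-0.29, adjusted p = 0.036). Tigar, which degrades that activator, rose (log2 fold change 0.23, limma adjusted p = 0.022), and so did Mpc1, a subunit of the mitochondrial pyruvate carrier (0.30, adjusted p = 0.017). The call of Pdk2 was lost without any library other than wild-type replicate 2 (adjusted p between 0.0542 and 0.111), with a replicate block (0.0613) and with no filter (0.0648). That of Pfkfb2 was lost without any other than wild-type replicate 1 (adjusted p 0.0696 to 0.0955), with no filter and with a pseudocount of 10 (both 0.0687). The call of Tigar was lost without wild-type replicate 1 or any Axin1 replicate (adjusted p 0.0536 to 0.0771), with the upper quartile (0.0521) and with a pseudocount of 10 (0.0502). That of Mpc1 was lost without Axin1 replicate 2 (adjusted p = 0.07), with voom (0.0521), with a pseudocount of 10 (0.0594) and with GC content and length corrected for, where the log2 fold change was 0.14 (0.184). Without Axin1 replicate 2, 0 of the 18 were called higher and 1 lower.

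The pentose phosphate pathway branches off glucose 6-phosphate to make NADPH and ribose. It had 2 of 8 tested genes higher and 0 lower (25.0% called, beside 22.8% of all tested genes). The 2 were Pgd, an NADPH-making dehydrogenase (log2 fold change 0.25, limma adjusted p = 0.041), and Rpe, an epimerase of its second phase (0.29, adjusted p = 0.026). The call of Pgd was lost without any library other than wild-type replicate 3 (adjusted p 0.0564 to 0.129), with the median of ratios (0.0743), the upper quartile (0.0922), no filter (0.0635) or a pseudocount of 0.1 (0.0545), and with GC content and length corrected for (0.0705). That of Rpe was lost without any library other than Axin1 replicate 1 (adjusted p 0.0531 to 0.0854) and with GC content and length corrected for, where the log2 fold change was 0.13 (0.156). Of 17 genes of the citric acid cycle, all tested, 0 were called by limma in either direction, although 5 had an unadjusted p under 0.05, all above 0, and the median log2 fold change was 0.09. A pseudocount of 10 called 1 of them, and no other setting, voom included, called any. Mdh2, the most abundant of them, was listed at 169 ± 11.1 and 188 ± 5.65 RPKM (SD, n = 3; log2 fold change 0.16, limma adjusted p = 0.127).

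Of 15 tested genes on side branches that draw on glycolytic intermediates, 3 rose and 1 fell (26.7% called, beside 22.8% of all tested genes). Gpd2, the mitochondrial glycerol phosphate dehydrogenase that carries electrons from cytosolic NADH, fell from 10.3, 10.3 and 10.5 RPKM to 7.29, 5.85 and 6.83 RPKM (log2 fold change -0.58, SE 0.08, limma adjusted p = 0.00257). Pgm2, a phosphoglucomutase, rose from 10.4, 10.3 and 9.29 RPKM to 12.4, 14.1 and 13.6 RPKM (log2 fold change 0.39, SE 0.07, limma adjusted p = 0.00933). Both calls were made under all 16 alternatives. Psat1, an enzyme of serine synthesis from 3-phosphoglycerate, rose by 0.24 on the log2 scale (limma adjusted p = 0.022), and Gys1, a glycogen synthase, by 0.19 (adjusted p = 0.049). The call of Psat1 was lost without wild-type replicate 1 or 3 or Axin1 replicate 2 or 3 (adjusted p 0.0517 to 0.0988) and with GC content and length corrected for (0.0647). That of Gys1 was lost when any 1 of the 6 libraries was left out (adjusted p 0.0612 to 0.138) and under 5 other alternatives (0.0502 to 0.116), a replicate block (0.0748) among them.

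Among 12 factors of the hypoxia and Myc systems, 2 rose and 2 fell (33.3% called, beside 22.8% of all tested genes). Epas1, the hypoxia-inducible factor subunit abundant in endothelium, fell from 154, 169 and 163 RPKM to 131, 132 and 146 RPKM (log2 fold change -0.25, SE 0.07, limma adjusted p = 0.035), and the oxygen sensor Egln1 fell from 39.1, 45.2 and 40.0 to 32.3, 34.0 and 32.9 RPKM (-0.31, SE 0.07, limma adjusted p = 0.017). Egln3, another oxygen sensor and itself hypoxia-inducible, rose (log2 fold change 0.33, limma adjusted p = 0.043), as did Mycn (0.25, adjusted p = 0.032). Hif1a was listed at 61.0, 48.6 and 67.1 RPKM in wild type and 72.4, 71.3 and 71.9 RPKM with Axin1 and did not pass (log2 fold change 0.30, SE 0.11, limma adjusted p = 0.079). Like the enzymes, Hif1a was lowest in wild-type replicate 2, and it passed without wild-type replicate 3 (adjusted p = 0.0358). The call of Epas1 was lost without wild-type replicate 2 or 3 or Axin1 replicate 1 or 2 (adjusted p 0.0763 to 0.129) and with GC content and length corrected for (-0.17, 0.117). That of Egln1 was lost without Axin1 replicate 2 or 3 (0.0534 and 0.056). The calls of Egln3 (adjusted p 0.0708 to 0.118) and Mycn (0.0507 to 0.107) were lost without any library other than wild-type replicate 1. Egln3 was also lost under 6 other alternatives (0.0523 to 0.0954) and Mycn with both rescalings (0.0744 and 0.0766). After rescaling by the median of ratios or the upper quartile, 0 of these factors were called higher and 2 lower.

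Of 14 tested hypoxia targets outside glycolysis, 2 rose and 0 fell (14.3% called, beside 22.8% of all tested genes). Ddit4, an inhibitor of mTORC1 induced by low oxygen and other stresses, rose from 59.0, 62.9 and 54.0 RPKM to 75.2, 75.7 and 74.9 RPKM (log2 fold change 0.36, SE 0.07, limma adjusted p = 0.0102), a call made under all 16 alternatives. Vegfa, the vascular growth factor, rose from 4.21, 3.96 and 5.04 RPKM to 6.10, 5.98 and 5.17 RPKM (log2 fold change 0.32, SE 0.09, limma adjusted p = 0.036). The call of Vegfa was lost without wild-type replicate 1 or 2 or Axin1 replicate 1 or 2 (adjusted p 0.0848 to 0.121). It was also lost with a replicate block (0.0566), the median of ratios (0.0685), the upper quartile (0.0729), no filter (0.0771), a pseudocount of 10 (0.0569) and with GC content and length corrected for (0.0524). The list's median log2 fold change was 0.11, or 0.004 with GC content and length corrected for.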

How the data were processed

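The data were a single table of the series with 6 libraries. Per the labels, tagged polysomes were purified and polyA RNA-seq libraries were made from them. Per the submitters' processing notes, Bowtie, DESeq and mm9 were used, while the counter, the filters and the handling of reads with several matches were not given in the sources used here. The deposited RPKM per library were the values analysed. The authors' deposited mean normalized count signal per group and their p-values, raw and adjusted, were used only for comparison, and the group means for recovering reads. Which mean belongs to which group was read from genes at 0 throughout a group. The design foresaw counts. As the table held RPKM, log2(RPKM + 1) was fitted with limma 3.58.1 in R 4.3.3 on genotype alone, on genes whose mean reached 1 RPKM, with Benjamini-Hochberg adjustment over 12493 genes and a threshold of 0.05. Fold changes on that scale understate those of low genes.

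Whole reads were recovered from the steps of the RPKM values, since 99.994% of values came out whole (within 0.05 reads) for 15033 genes with a single transcript, but 26.6% for 3884 genes with several, such as Hk1, Aldoa and Ldha, whose reads are approximate. A count of 3 reads on 1 kb corresponds to 0.048 to 0.142 RPKM. On simulated data for this comparison with 12493 genes, 91.7% of changes of 0.5 on the log2 scale and 100.0% of those of 1 or 2 were recovered. A mean of 15.0 unchanged genes was called. The 200 changed genes of each simulated set all had more reads on average than Eno1. Every gene was given the same dispersion, with no difference by run or cell type. Changes under 0.5, the size of those of Hk2, Pgk1 and Ldha, were not simulated.

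Enzyme genes and lists were chosen with earlier results of these data known. Named were the 10 enzymes, called members of each list and the 3 genes closest in pattern, and the rule allowed for a list's most abundant member not called, which is named for some lists. The isozymes of each step, Gapdh and the copy Gm5506 were added after their values were seen. Promoters came from RefSeq tables of GRCm38.p6 and were matched by symbol for 10 of 10 genes. Sequence copies, shared windows and reference lengths came from GENCODE transcripts, linked mainly through RefSeq accessions. Both sources are of a build other than that of the deposited table. Shares were compared by exact two-sided permutation tests over libraries, for which 0.10 is the smallest p. Per the labels the replicates are biological. Alternatives were other pseudocounts (0.1 and 10), filters, scalings, a trend with robust variances, a replicate block, voom on the recovered reads, a loess correction by GC content and length chosen after seeing the data, and leaving out each library.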

Additional observations from a re-analysis of the deposited data

How the results depend on the processing

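The directions of Hk1, Hk2, Gpi1, Pfkl, Aldoa, Pgk1, Eno1 and Ldha were the same under every alternative that tested them. With the upper quartile, the log2 fold changes turned to -0.0082 for Pfkp and -0.0078 for Tpi1. Leaving out 1 library gave 0 to 3 called enzymes, with 0 without Axin1 replicate 2, and turned Pfkm to -0.047 at the lowest (highest 0.146) and Eno3 to 0.0508 at the highest (lowest -0.109). Of all genes, 1800 were called higher and 1046 lower. The higher count was 1117 with the upper quartile and 1053 once GC content and length were corrected for, which was chosen after seeing the data. It was 589 to 1492 without 1 library, and the lower count 465 to 933, the lowest being without Axin1 replicate 2. The Pfkl share differed by -0.527 to 0.636 percentage points without 1 library, with -0.298 without Axin1 replicate 2 and -0.0855 without Axin1 replicate 3. Without 1 library, the share differences were -4.99 to -3.34 for Hk1, -2.04 to -0.663 for Aldoa, 13.1 to 17.5 for Eno1 and 0.144 to 2.04 for Ldha. With a replicate block, 2675 genes were called (2846 without it), 4 of them enzymes. Same-numbered libraries correlated at 0.078, 0.127 and 0.059 in their deviations, and the other pairs at -0.11 to 0.014. Whether same-numbered libraries were paired cannot be told from these values. Each correlated best with its own number, a pattern in the data and not the design. Deviations were taken from group means of 3 libraries, which ties these correlations together, so the match cannot decide pairing. The count models with DESeq2 scaling were not run on the deposited values, which are not counts. Mean depth in wild type was 1.84 times that with Axin1, and Eno1 rests on 24 to 63 reads a library.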
